A study of Mus musculus with 26 samples.

Results

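The genes described here lie around the Tdpoz gene cluster of mouse chromosome 3, the locus of the Tdpoz super-enhancer (Tdpoz-SE). They are the genes that start between 92068823 and 95072644 on chromosome 3 (mm10), which is the span of the Tdpoz genes plus 1 Mb on each side, without the Tdpoz genes themselves. Of the 55291 genes in the count table, 171 start in this window and 77 of them reached the minimum of 10 counts over all 26 libraries. At that minimum, Gm16561 and Gm37882 had 10 counts and were kept, and Gm38086 had 9 and was not. A further 28 of the 77 were too low for testing, with totals of 10 to 128 counts and no more than 21 counts in any library, so that 49 were tested. The coordinates of the Tdpoz-SE and of its deletion are not given in the sources used here. Distances are therefore given to a reference point chosen for this description, the interval of 28.5 kb between Tdpoz4, which ends at 93797510, and Tdpoz3, which starts at 93826020, and they are not distances to the deletion.

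RNA was measured by poly(A) RNA-seq in mouse R1 embryonic stem cells (mESCs) kept with LIF on gelatin, in 13 groups of 2 replicates each. Wild-type cells were left untreated (ESC), or overexpressed Dux (Dux OE), the point mutant Dux R70A (Dux R70A OE) or Zscan4 (Zscan4 OE), in each case after doxycycline for 24 h, at 4 μg/mL as stated for the DUX induction. Other wild-type cells received 0.53 μM retinoic acid (RA) for 48 h, 4 nM of the splicing inhibitor pladienolide B (PlaB) for 4 days, or DMSO as the control. Cells that lack the Tdpoz-SE (SE KO) were measured only after an induction, as SE KO Dux OE, SE KO RA and SE KO PlaB, at the same doses and times. Cells with Dux knockdown (Dux KD) under RA, PlaB or Zscan4 OE were the remaining groups. No uninduced SE KO library was analysed, the labels do not say how many SE KO clones were used, and the title of SE KO RA replicate 1 says SE KO while its genotype label says WT. Nothing in the labels says that the replicates came from separate cultures, so p-values measure the spread between these libraries, which may be technical.

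Mouse ESC cultures contain a small share of 2-cell-like cells, which switch on genes and MERVL retroviral elements of the 2-cell embryo, and the homeobox factor DUX is known to drive this state. Super-enhancers are dense stretches of enhancers with high H3K27 acetylation, and removing one is used to find which genes depend on it. Tdpoz genes encode proteins with a TRAF (MATH) domain and a BTB/POZ domain, related to the ubiquitin ligase adaptor SPOP, and are transcribed in oocytes and early embryos. On the Tdpoz4 side of the interval lies part of the epidermal differentiation complex, a run of genes for the cornified envelope and for S100 proteins. On the Tdpoz3 side, beyond the Tdpoz-like genes, lie genes for metabolism, the proteasome, trafficking and transcription. In bulk RNA, fewer cells of a type and less RNA per cell cannot be told apart.

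Sequence splits the 77 genes into a family and its neighbours. The longest annotated transcript of 16 of them aligned over at least 50% of the Tdpoz3 transcript, with an identity of 78.2% to 99.0%, and these are called Tdpoz-related here. They comprise Spopfm1, Spopfm2, Spopfm3 and 13 genes with Gm numbers (Gm5541, Gm5852, Gm5773, Gm9113, Gm9116, Gm9117, Gm9121, Gm9124, Gm5542, Gm9131, Gm5543, Gm4982 and Gm9141), most of which are annotated as pseudogenes. They all lie within a block of 638 kb from Gm5541 to Spopfm1, on both sides of the Tdpoz4 to Tdpoz3 interval, between S100a10 and Them4. To show how alike the members are that the comparisons below turn on, the first 60 coding bases of Tdpoz3 (chromosome 3, 93826020 to 93826079, plus strand) are set beside the aligned bases of the member nearest to it in sequence and of the 5 members that fell in SE KO Dux OE or SE KO RA. Capitals mark bases that differ from Tdpoz3, and sequences are from GENCODE M21 transcripts (GRCm38).
Tdpoz3: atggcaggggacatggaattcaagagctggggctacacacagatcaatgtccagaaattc
Gm4982: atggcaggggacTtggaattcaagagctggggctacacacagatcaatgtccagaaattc
Gm9113: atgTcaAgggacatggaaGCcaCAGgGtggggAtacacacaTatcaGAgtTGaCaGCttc
Gm5543: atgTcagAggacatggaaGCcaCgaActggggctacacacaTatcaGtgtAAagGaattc
Gm5541: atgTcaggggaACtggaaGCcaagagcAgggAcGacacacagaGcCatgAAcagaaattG
Spopfm2: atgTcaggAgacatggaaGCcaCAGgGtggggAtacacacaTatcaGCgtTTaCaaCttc
Spopfm1: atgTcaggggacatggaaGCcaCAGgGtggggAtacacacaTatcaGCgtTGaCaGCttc

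Gm4982 differed from Tdpoz3 at 1 of these 60 bases, Gm5543 at 11, Gm5541 at 13, Spopfm1 and Spopfm2 at 16 each and Gm9113 at 17. The stretch begins at the start codon of Tdpoz3, and for Gm4982 it lies at 94237740 to 94237799 on the minus strand. Spopfm1 carries it at 94265699 to 94265758 on the plus strand, and Gm9113 carries it at 93874327 to 93874386 on the minus strand. How far reads of 1 copy could be counted for another was judged from shared stretches of 50 bases. Of a member's 50-base stretches, between 10.3% (Spopfm1) and 94.7% (Gm9124) occurred in a transcript of some other gene, with a median of 70.6%. Values of single Tdpoz-related members are therefore uncertain, those of Spopfm1 least so, and the sum over the 16 members is given beside them. The sum leaves out the Tdpoz genes, which hold shared stretches too (66.2% for Tdpoz3). Reads may thus cross between both sets, and values of single Tdpoz genes carry the same limit.

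The libraries held 14401452 to 39402840 counts, with a median of 18276934. Levels are CPM, counts scaled to library size by TMM, and 3 counts, used as the floor of detection, equal 0.0796 to 0.226 CPM depending on the library. Pluripotency markers (Pou5f1, Sox2, Nanog, Zfp42 and Esrrb) were detected in every group, with a summed level of 1262 to 5123 CPM per library. A gene is called higher or lower at a Benjamini-Hochberg adjusted p under 0.05 in edgeR's quasi-likelihood test over all 20953 tested genes and a log2 fold change of at least 1 in size.

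The summed level of the Tdpoz-related members was highest in Dux OE. It was 0.872 and 0.733 CPM in the ESC libraries and 186 and 201 CPM in the Dux OE libraries. In the plot of summed levels, Dux OE is followed by SE KO Dux OE, with 108 and 94.4 CPM, and by PlaB, with 17.9 and 11.6 CPM. SE KO PlaB had 7.55 and 5.08 CPM, Zscan4 OE 3.43 and 4.78 CPM, and RA 2.03 and 2.14 CPM. SE KO RA had 0.0931 and 0.592 CPM, from 2 and 14 counts, and the 2 DMSO libraries held 1 and 0 counts. In Dux R70A OE, none of the 16 members had a count in either library. Dux OE, SE KO Dux OE, PlaB and SE KO PlaB each lay above the next in both libraries, and SE KO PlaB lay above Zscan4 OE by less than the gap between its own libraries.

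**Figure D1:**
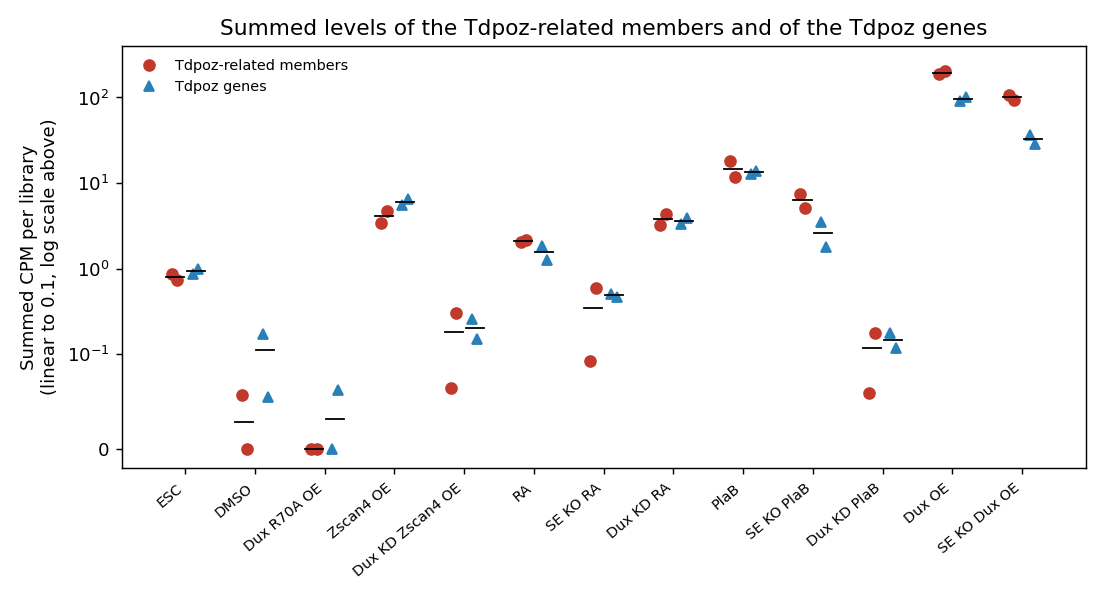
Summed CPM of the 16 Tdpoz-related members (circles) and of the 9 Tdpoz genes (triangles) in each of the 26 libraries, by group, with black bars at the mean of 2 libraries. The vertical axis is linear up to 0.1 CPM and logarithmic above, and both sums were highest in Dux OE and lower in each SE KO group than in the matching wild-type group.

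In Dux OE, nearly every gene of this window that rose was Tdpoz-related. Against ESC, 17 of the 49 tested genes were called higher and 1 lower, where 7.38% of all tested genes were called higher and 2.12% lower, 9.51% in all. The 17 were the 15 tested Tdpoz-related members, the short pseudogene Gm37430, which lies inside their block, and Tuft1, which encodes the enamel and adapter protein tuftelin. Some of them, such as Gm5852, Gm9116 and Gm37430, passed the low-count filter only through Dux OE or SE KO Dux OE libraries. Their call in Dux OE was thus largely set by the filter, and the count of 17 is a description that cannot be weighed against 7.38%. The median log2 fold change over the 49 was 0.47, against 0.00 over all genes. Spopfm1 had 0.436 and 0.467 CPM in ESC and 49.4 and 47.8 CPM in Dux OE, the only Tdpoz-related member with more than 3 counts in the ESC group. Its log2 fold change was 6.73 ± 0.39 (SE, adjusted p = 1.3e-12 in edgeR).

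The other Tdpoz-related members were near or under the floor in ESC, so their increase is given from counts. Gm9113 had 1 and 0 counts in ESC and 468 and 554 in Dux OE, a ratio of 1113 with a counting interval of 199 to 44016. Gm5541 had 2 and 0 counts in ESC and 228 and 352 in Dux OE, a ratio of 316 with an interval of 87.1 to 2615. Both members were thus at the edge of detection before induction and among the 3 most abundant afterwards. Gm9124 had no counts in ESC and 105 and 132 in Dux OE, at least 42.9-fold higher against the floor of 3 counts per library. Gm4982 likewise had none in ESC and 93 and 119 in Dux OE, at least 38.3-fold higher. These intervals cover counting error only. Per kb of exon, Spopfm1 reached 39.8 and 38.5 CPM in Dux OE, Gm9113 33.5 and 36.8 CPM and Gm9116 1.86 and 1.99 CPM, so that members of 1 block differed widely in level.

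Outside the block, Tuft1 was 4.61 and 4.00 CPM in ESC and 11.5 and 8.65 CPM in Dux OE (log2 fold change 1.22 ± 0.24, adjusted p = 0.00032 in edgeR). Tchh, which encodes trichohyalin of the hair follicle, was the gene that fell, from 1.31 and 0.933 CPM to 0.437 and 0.338 CPM, with a log2 fold change of -1.53 ± 0.46 (adjusted p = 0.014 in edgeR). Both changes were also called in Dux R70A OE against the same ESC libraries. Tuft1 stood there at 9.24 and 10.3 CPM, a log2 fold change of 1.18 ± 0.24 (adjusted p = 0.0002 in edgeR), and Tchh at 0.376 and 0.314 CPM, a log2 fold change of -1.68 ± 0.45 (adjusted p = 0.0034 in edgeR). Dux OE and Dux R70A OE share the ESC libraries, so the values of both are only set side by side.

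Dux R70A OE did not raise a Tdpoz-related member. Against ESC, 3 of the 49 genes were called higher and 2 lower, where 10.2% and 6.72% of all tested genes were. The Tdpoz-related member among them was Spopfm1, with 7 and 7 counts in ESC and none in Dux R70A OE, at least 2.58-fold lower (adjusted p = 0.0069 in edgeR). Selenbp1, a selenium-binding methanethiol oxidase, was 1.74 and 1.73 CPM in ESC and 5.00 and 4.77 CPM in Dux R70A OE (log2 fold change 1.49 ± 0.26, adjusted p = 3e-05 in edgeR). Celf3, a neuronal RNA-binding protein gene whose exons overlap those of Riiad1 on the other strand, had 4 and 0 counts in ESC and 19 and 10 in Dux R70A OE (adjusted p = 0.0058 in edgeR).

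Zscan4 OE raised 4 of the 49 genes against ESC and lowered none, where 7.25% and 4.39% of all tested genes were called. At an unadjusted p under 0.05, 17 of the 49 differed in either direction. The share over all genes at that line is not given here. The 4 were Tuft1, at 8.995 and 9.67 CPM against 4.61 and 4.00 CPM in ESC (log2 fold change 1.11 ± 0.24, adjusted p = 0.00049 in edgeR), and the Tdpoz-related Gm5541, Gm9113 and Gm4982. Gm5541 had 10 and 16 counts in Zscan4 OE, a ratio to ESC of 11.9 with a counting interval of 2.98 to 104. Gm9113 had 5 and 12 counts, a ratio of 15.6 with an interval of 2.44 to 652. Gm4982 had 2 and 12 counts in Zscan4 OE and none in ESC, at least 2.02-fold higher.

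RA raised 5 of the 15 tested Tdpoz-related members, on few reads. Against DMSO, 11 of the 49 genes were called higher and 1 lower, where 20.6% and 10.4% of all tested genes were. The median log2 fold change of the 49 was 0.56, against 0.10 over all genes. These 5 members, Gm5541, Gm9113, Spopfm2, Gm4982 and Spopfm1, had no count in either DMSO library. Spopfm1 had 21 and 7 counts in RA, at least 3.74-fold higher, and Gm5541 had 9 and 14, at least 3.13-fold higher. Gm9113 had 6 and 2 counts, so its bound was 1.07, and Spopfm2, with 1 and 4 counts, stayed too close to the floor for one above 1.

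Of the genes outside the family, RA moved both S100 genes, in opposite directions. S100a10, the annexin A2 partner p11, was 58.9 and 61.2 CPM in DMSO and 11.7 and 11.6 CPM in RA, a log2 fold change of -2.37 ± 0.11 (adjusted p = 3.7e-16 in edgeR). S100a11, its calcium-binding neighbour, was 20.8 and 20.5 CPM in DMSO and 46.0 and 44.7 CPM in RA (log2 fold change 1.14 ± 0.15, adjusted p = 2.3e-07 in edgeR). Tchh was 0.170 and 0.439 CPM in DMSO and 2.78 and 3.49 CPM in RA, a log2 fold change of 3.33 ± 0.39 (adjusted p = 3.3e-08 in edgeR). Selenbp1 was 1.53 and 1.37 CPM in DMSO and 9.74 and 8.52 CPM in RA (log2 fold change 2.65 ± 0.24, adjusted p = 4.8e-10 in edgeR). With ESC in place of DMSO as the control, 7 genes were called under RA, and without DMSO replicate 1 also 7.

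PlaB changed most of the window. Against DMSO, 31 of the 49 genes were called higher and 7 lower, where 32.3% and 26.6% of all tested genes were, and the median log2 fold change was 3.03 over the 49 and 0.22 over all genes. Gm42464, Oaz3, Riiad1, Gm43773 and Gm15234 passed the low-count filter only through the PlaB libraries. Their call was thus largely set by the filter, and the count of 31 cannot be weighed against 32.3%. Of the 15 tested Tdpoz-related members, 14 were called higher. Spopfm1 had 110 and 58 counts in PlaB, at least 23.8-fold above DMSO, and Gm9113 had 65 and 48, at least 15.9-fold. Genes between Them4 and Celf3 rose with them. Them4, an acyl-CoA thioesterase, was 2.78 and 2.85 CPM in DMSO and 31.4 and 34.5 CPM in PlaB (log2 fold change 3.55 ± 0.17, adjusted p = 1.8e-16 in edgeR). Its paralogue Them5 had 1 and 0 counts in DMSO and 162 and 127 in PlaB, a ratio of 243 with a counting interval of 43.2 to 9624. Tdrkh, a Tudor protein of the germline piRNA pathway, was 10.04 and 9.21 CPM in DMSO and 87.1 and 70.6 CPM in PlaB (log2 fold change 3.03 ± 0.14, adjusted p = 3.3e-17 in edgeR).

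The genes that fell under PlaB lay beyond Celf3, though Gm43773, Gm15234, BC021767 and Psmd4, also beyond Celf3, were called higher. Those that fell included Snx27, a retromer-associated sorting nexin, Pogz, a zinc finger protein that binds HP1, and the MHC class II regulator Rfx5. The others were the lipid kinase gene Pi4kb, its antisense gene Gm15265, the zinc finger gene Zfp687 and 4930481B07Rik. Pogz was 111 and 114 CPM in DMSO and 23.5 and 25.4 CPM in PlaB (log2 fold change -2.21 ± 0.08, adjusted p = 1.2e-19 in edgeR). Of 16 tested genes 500 kb to 1 Mb from the Tdpoz4 to Tdpoz3 interval, 13 were called higher and 1 lower under PlaB. Of 13 tested genes more than 1 Mb away, 1 was called higher and 6 lower. Over all tested genes, 32.3% were called higher and 26.6% lower. The nearer bin holds Gm42464, Oaz3, Riiad1, Gm43773 and Gm15234, whose calls the low-count filter largely set. Over the 49 genes, Spearman's rho of the log2 fold change with distance was -0.70. Over the 34 that are not Tdpoz-related it was -0.62. Both rho values only describe genes that share these libraries, among them those let in through PlaB alone.

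**Figure D2:**
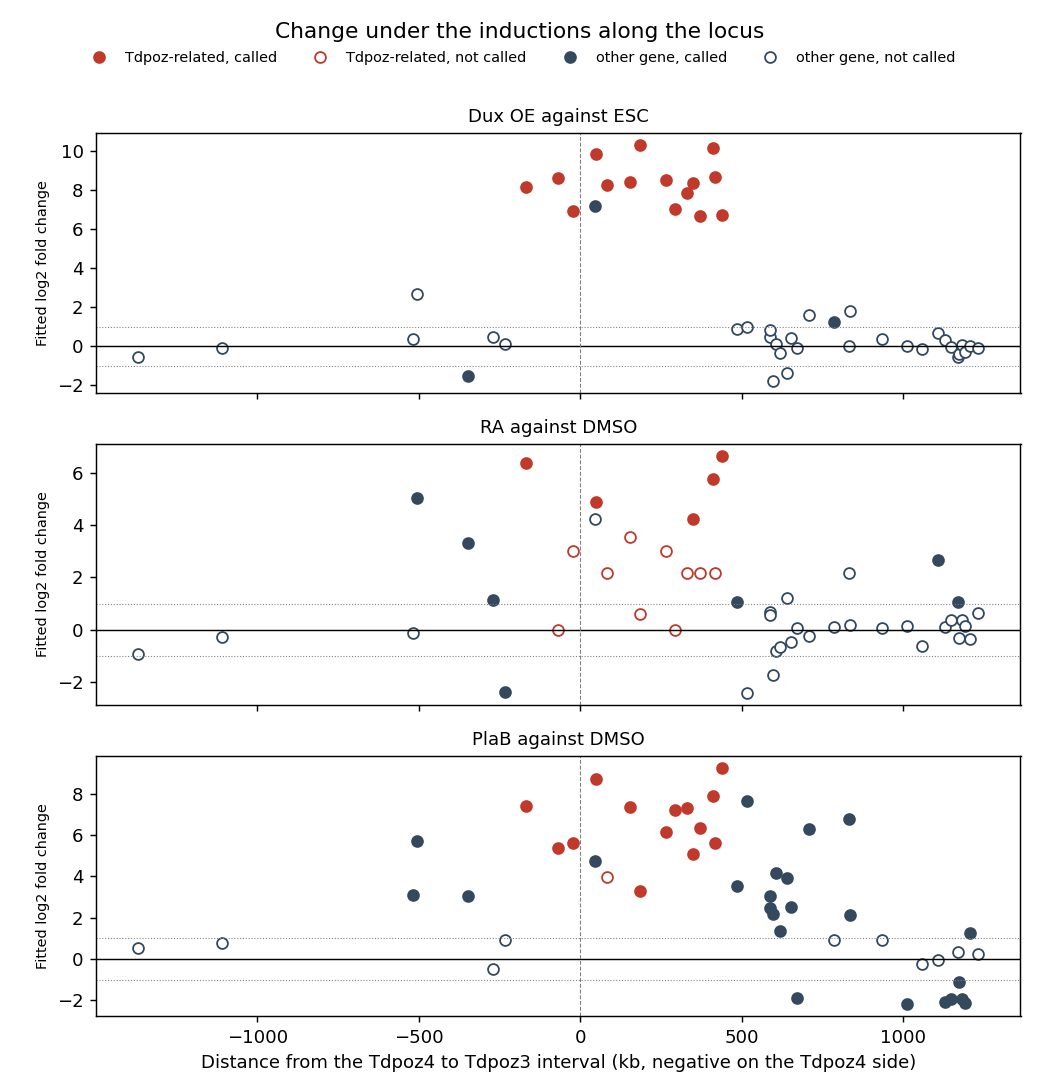
Fitted log2 fold change of the 49 tested genes in Dux OE against ESC, RA against DMSO and PlaB against DMSO, by distance from the Tdpoz4 to Tdpoz3 interval in kb. Red points are Tdpoz-related, filled points are called and dotted lines mark a log2 fold change of 1 in either direction, and the fitted size of genes with no counts in the control depends on the prior count. In Dux OE, called points cluster within 500 kb of the interval apart from Tuft1, while under PlaB they extend over most of the window.

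Without the coordinates of the deletion, the SE KO label could not be checked in the counts of a deleted gene, and the Tdpoz genes at both ends of the reference interval are given first. Tdpoz3 was 35.3 and 38.5 CPM in Dux OE and 8.97 and 6.84 CPM in SE KO Dux OE (log2 fold change -2.22 ± 0.20, adjusted p = 7.6e-09 in edgeR). It had 177 and 199 counts in PlaB and 30 and 19 in SE KO PlaB, a log2 fold change of -2.99 ± 0.26. Under RA it had 16 and 7 counts and in SE KO RA 2 and 4, a log2 fold change of -1.92 ± 0.59 (adjusted p = 0.0096 in edgeR). Tdpoz4 was lower in SE KO Dux OE, with a log2 fold change of -1.66 ± 0.22, while in SE KO RA it had 4 and 7 counts against 8 and 4 in RA (log2 fold change -0.15 ± 0.64, adjusted p = 0.876 in edgeR).

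In SE KO Dux OE, 3 of the 15 tested Tdpoz-related members and 1 of the 34 other tested genes were called lower than in Dux OE. None of the 49 genes was called higher and 4 were called lower, where 2.46% of all tested genes were called higher and 3.84% lower, 6.30% in all. The 4 were Gm9113, Gm5543, Spopfm1 and Gm15265. An unadjusted p under 0.05 was seen for 25 of the 49, and its share over all genes is not given here. DESeq2 called 3 genes, without Gm5543, and none higher. Spopfm1, on chromosome 3 from 94264036 to 94266784 and 438 kb from the interval, was 49.4 and 47.8 CPM in Dux OE and 22.1 and 18.3 CPM in SE KO Dux OE. Its log2 fold change was -1.26 ± 0.23 (adjusted p = 0.00035 in edgeR). Gm9113, 47.3 kb from the interval, was 34.1 and 37.4 CPM in Dux OE and 15.6 and 14.6 CPM in SE KO Dux OE (log2 fold change -1.25 ± 0.19, adjusted p = 5.2e-05 in edgeR). Gm5543, 332 kb away, was 8.53 and 9.19 CPM against 4.49 and 2.65 CPM (log2 fold change -1.30 ± 0.33, adjusted p = 0.006 in edgeR). It was no longer called without Dux OE replicate 2 (adjusted p = 0.068 in edgeR) or SE KO Dux OE replicate 2 (adjusted p = 0.085 in edgeR).

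The summed level of the family in SE KO Dux OE lay between those of ESC and Dux OE. The summed level of the 16 members was 193 ± 11.0 CPM in Dux OE and 101 ± 9.29 CPM in SE KO Dux OE (SD, n = 2), or 52.2% of the wild-type level. The 9 Tdpoz genes summed to 95.8 ± 6.43 CPM and 32.5 ± 5.51 CPM, a ratio of 0.339. The fitted log2 fold change was below 0 for the 15 tested Tdpoz-related members, from -0.09 for Gm5773 to -1.30 for Gm5543, with a median of -0.86, against -0.02 over all genes. Gm4982, the member nearest to Tdpoz3 in sequence, was 6.78 and 8.04 CPM in Dux OE and 6.37 and 5.73 CPM in SE KO Dux OE (log2 fold change -0.29 ± 0.35, adjusted p = 0.592 in edgeR). Gm5773, 23.4 kb from the interval and the closest tested gene to it, was 4.45 and 5.00 CPM against 5.18 and 3.70 CPM, and its groups overlapped. The 2-cell-like markers (Zscan4c, Zscan4d, Zfp352, Tcstv3, Usp17le and Sp110), of which none was at 0 in either group, summed to 3266 to 3364 CPM in the Dux OE libraries and 1348 to 1565 CPM in those of SE KO Dux OE. Fibroblast markers (Col1a1, Col1a2, Dcn, Thy1 and Pdgfrb) summed to 58.1 to 61.9 CPM in Dux OE, where Dcn was at 0, and to 113 CPM in both SE KO Dux OE libraries. Pluripotency markers summed to 2985 to 3026 CPM and 3464 to 3531 CPM, and primitive endoderm markers (Gata6, Gata4, Sox17, Sox7, Foxa2 and Dab2) to 5.34 to 7.29 CPM and 8.97 to 12.8 CPM, with none at 0 in either list. Against these sums, Pou5f1 was lower in SE KO Dux OE, at 351 and 393 CPM against 505 and 530 CPM in Dux OE, as was Sox17. The rise of the primitive endoderm sum came from Dab2, at 9.72 and 7.07 CPM against 3.65 and 2.84 CPM in Dux OE. Gata4 and Sox7 had lower means in SE KO Dux OE, with libraries that overlapped, so that list did not rise as a whole. The part of these lists in the result was not tested.

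Of the neighbours, only Gm15265 was called in SE KO Dux OE. It is an antisense gene of Pi4kb, 1173 kb from the interval, with 1.90 and 1.89 CPM in Dux OE and 0.770 and 0.687 CPM in SE KO Dux OE (log2 fold change -1.37 ± 0.39, adjusted p = 0.01 in edgeR). Pi4kb, from whose reads those of Gm15265 cannot be told apart without strand, was 49.5 and 49.7 CPM against 32.6 and 36.6 CPM, a log2 fold change of -0.52 ± 0.10. Gm15265 was no longer called when Dux OE replicate 1, Dux OE replicate 2 or SE KO Dux OE replicate 2 was left out, with adjusted p from 0.0524 to 0.0703. Without a line on fold change, 18 of the 49 genes were lower at an adjusted p under 0.05 and none higher, 7 of them Tdpoz-related and 11 not. The share over all genes at this threshold is not given here, so these counts are not read as particular to the window. Among those 11, Pogz was 165 and 164 CPM in Dux OE and 108 and 113 CPM in SE KO Dux OE (log2 fold change -0.57 ± 0.07, adjusted p = 1.5e-06 in edgeR). Psmb4 and Psmd4, which encode proteasome subunits, had log2 fold changes of -0.38 ± 0.10 and -0.41 ± 0.10.

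The SE KO Dux OE libraries stood apart in their low counts and totals. Among genes with 1 to 10 counts, 62.9% and 64.0% had an even count in these 2 libraries, against 38.5% to 42.8% in the other 24. They also had the highest totals, 39402840 and 32990350. With their counts divided by 2 and rounded, an alternative added after the data were seen, the same 4 genes were called lower. Dividing every count alike cannot show what another counting setting would do to a single gene. The counting settings of these libraries are not given in the sources used here, and their part in the result was not tested beyond this.

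In SE KO RA, 4 of the 15 tested Tdpoz-related members were called lower than in RA, on few reads. None of the 49 genes was called higher and 5 were called lower, where 6.57% and 11.0% of all tested genes were. An unadjusted p under 0.05 was seen for 12 of the 49, and its share over all genes is not given here. DESeq2 called 3 of the 49 lower and none higher. In a fit of the RA and SE KO RA libraries alone, the 4 Tdpoz-related members were by their counts too low to be tested. The 16 members summed to 46 and 46 counts in RA and to 2 and 14 counts in SE KO RA. Spopfm1 had 21 and 7 counts in RA and 1 and 3 in SE KO RA (log2 fold change -2.75 ± 0.83, adjusted p = 0.0088 in edgeR). Gm5541 had 9 and 14 counts against 0 and 6 (log2 fold change -1.92 ± 0.72, adjusted p = 0.032 in edgeR). Gm9113 had 6 and 2 counts against 0 and 1, a ratio of SE KO RA to RA of 0.122 with a counting interval of 0.00276 to 0.913 (adjusted p = 0.042 in edgeR). Spopfm2 had 1 and 4 counts against 0 and 0 (adjusted p = 0.033 in edgeR), too few for a bound on its fold.

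Tchh was the neighbour that fell in SE KO RA, from 2.78 and 3.49 CPM to 1.49 and 1.10 CPM (log2 fold change -1.28 ± 0.29, adjusted p = 0.00076 in edgeR). Without SE KO RA replicate 1, the library whose labels conflict, Tchh was the 1 gene of the 49 still called. Leaving out RA replicate 1 or RA replicate 2 left 3 calls each. Them4 was 5.37 and 6.33 CPM in RA and 3.35 and 3.39 CPM in SE KO RA, a log2 fold change of -0.80 ± 0.18 that stayed under the line of 1. The genes more than 500 kb from the cluster held no call, and their median log2 fold change was -0.11. The 2-cell-like markers summed to 464 to 535 CPM in RA and to 51.0 to 54.0 CPM in SE KO RA, with none of the 6 at 0. Pluripotency markers summed to 2286 to 2340 CPM in RA and 1262 to 1280 CPM in SE KO RA, and primitive endoderm markers to 89.5 to 93.0 CPM and 45.9 to 49.98 CPM, with none at 0 in either list. Fibroblast markers summed to 107 to 121 CPM in RA and 145 to 158 CPM in SE KO RA, where Dcn was at 0. The sums hide opposite moves within the lists. Pdgfrb and Col1a1 were higher in SE KO RA, and Col1a2 and Thy1 were lower. Pou5f1 was higher, at 472 and 451 CPM against 316 and 340 CPM in RA, as was Gata4, while the other members of their lists were lower. The part of these lists in the result was not tested.

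SE KO PlaB differed from PlaB across the window, as it did across the genome. Of the 49 genes, 7 were called higher and 19 lower, where 25.9% and 26.1% of all tested genes were, so that the share called, 26 of 49, was near the 52.0% of all genes. The median log2 fold change was -0.98 over the 49 and -0.07 over all genes. Gm42464, Oaz3, Riiad1, Gm43773 and Gm15234 passed the low-count filter only through the PlaB libraries, so the count of 19 is a description. The summed level of the Tdpoz-related members was 14.8 ± 4.46 CPM in PlaB and 6.31 ± 1.74 CPM in SE KO PlaB (SD, n = 2). Gm9113, Gm9121, Gm9131, Gm5543 and Spopfm1 were called lower. Gm9121 had 25 and 19 counts in PlaB and 4 and 1 in SE KO PlaB (log2 fold change -3.13 ± 0.55, adjusted p = 2.9e-05 in edgeR). Gm9113 was 3.15 and 2.18 CPM against 0.867 and 0.793 CPM (log2 fold change -1.67 ± 0.31, adjusted p = 4.1e-05 in edgeR). Spopfm1 was 5.33 and 2.63 CPM against 1.65 and 1.03 CPM (log2 fold change -1.55 ± 0.35, adjusted p = 0.00037 in edgeR). Without PlaB replicate 1 the log2 fold change of Spopfm1 was -0.90, under the line of 1. Gm9131 was no longer called without PlaB replicate 1 (adjusted p = 0.0759 in edgeR) or SE KO PlaB replicate 2 (adjusted p = 0.13 in edgeR).

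Next to the block, the genes from Them4 to Cgn were mostly lower in SE KO PlaB. Of the 15 tested genes in this stretch, 11 were called lower and 1 higher, where 26.1% and 25.9% of all tested genes were. The stretch was not among the distance bins and begins and ends at genes called lower. Its count is thus partly set by its bounds. The calls of Gm42464, Oaz3, Riiad1, Gm43773 and Gm15234 were also largely set by the low-count filter, which they passed only through PlaB. The count of 11 therefore only describes the stretch and cannot be weighed against 26.1%. Them4 lies 484 kb from the Tdpoz4 to Tdpoz3 interval. It was 31.4 and 34.5 CPM in PlaB and 5.64 and 4.38 CPM in SE KO PlaB (log2 fold change -2.71 ± 0.16, adjusted p = 9.1e-15 in edgeR). Them5 was 7.85 and 5.76 CPM against 0.997 and 0.653 CPM (log2 fold change -3.03 ± 0.50, adjusted p = 6.6e-06 in edgeR). Both thioesterase genes thus fell well below their PlaB level, and their libraries did not overlap. Tdrkh was 87.1 and 70.6 CPM against 22.5 and 22.8 CPM, a log2 fold change of -1.80 ± 0.12. Oaz3, a testis antizyme whose exons overlap those of Tdrkh and Mrpl9 on the other strand, had 28 and 42 counts against 1 and 0, a ratio of 0.0137 with a counting interval of 0.000342 to 0.0789. Mrpl9, a protein of the mitochondrial ribosome, was 66.0 and 57.9 CPM against 19.4 and 20.8 CPM (log2 fold change -1.62 ± 0.11). Cgn, the tight junction protein cingulin, was 89.3 and 78.4 CPM against 27.9 and 27.7 CPM (log2 fold change -1.59 ± 0.09).

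The remaining genes called lower in this stretch were of low level. Riiad1 was 1.07 and 1.68 CPM in PlaB and 0.130 and 0.140 CPM in SE KO PlaB, and Celf3, which overlaps it on the other strand, was 1.40 and 1.23 CPM against 0.607 and 0.373 CPM. Celf3 was no longer called without any 1 of PlaB replicate 1, PlaB replicate 2 and SE KO PlaB replicate 2, with adjusted p from 0.0545 to 0.17 in edgeR. Gm42464 had 11 and 22 counts against 2 and 0, and Gm43773, which is annotated inside an intron of Snx27, had 59 and 54 against 1 and 2. Gm15234 had 16 and 14 counts against none, at least 5.22-fold lower. Snx27 was the gene of this stretch that rose, from 32.3 and 31.3 CPM to 81.7 and 93.5 CPM (log2 fold change 1.46 ± 0.08, adjusted p = 6e-15 in edgeR).

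More than 1 Mb from the interval, 5 of 13 tested genes were called higher in SE KO PlaB and 1 lower. Over all tested genes, 25.9% were called higher and 26.1% lower. This bin includes Gm9774 and Gm4202 from the Tdpoz4 side. The exons of Pi4kb overlap those of Gm15265 and Zfp687 on the other strand, so these 3 genes may share reads. Pogz was 23.5 and 25.4 CPM in PlaB and 137 and 133 CPM in SE KO PlaB (log2 fold change 2.47 ± 0.08, adjusted p = 1.9e-20 in edgeR). Rfx5 was 2.08 and 2.54 CPM against 15.9 and 12.7 CPM (log2 fold change 2.62 ± 0.19, adjusted p = 1.6e-12 in edgeR). Pi4kb was 7.80 and 6.58 CPM against 27.8 and 33.3 CPM, and Zfp687 10.1 and 12.2 CPM against 33.9 and 38.5 CPM. These genes for transcription and lipid signalling all stood higher in both SE KO PlaB libraries. Psmd4 was the gene that fell there, from 517 and 471 CPM to 170 and 239 CPM (log2 fold change -1.28 ± 0.10, adjusted p = 1.1e-11 in edgeR). Psmb4, the other proteasome gene, was 182 and 168 CPM against 128 and 182 CPM, and its groups overlapped.

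On the Tdpoz4 side of the block, S100a10 and S100a11 moved apart. S100a10 was 121 and 102 CPM in PlaB and 37.4 and 40.1 CPM in SE KO PlaB (log2 fold change -1.52 ± 0.10, adjusted p = 6.6e-14 in edgeR). S100a11 was 15.4 and 14.1 CPM against 31.0 and 49.8 CPM (log2 fold change 1.45 ± 0.15, adjusted p = 1.8e-09 in edgeR). The pseudogene Rplp0-ps1 had 40 and 45 counts against 4 and 12.

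**Figure D3:**
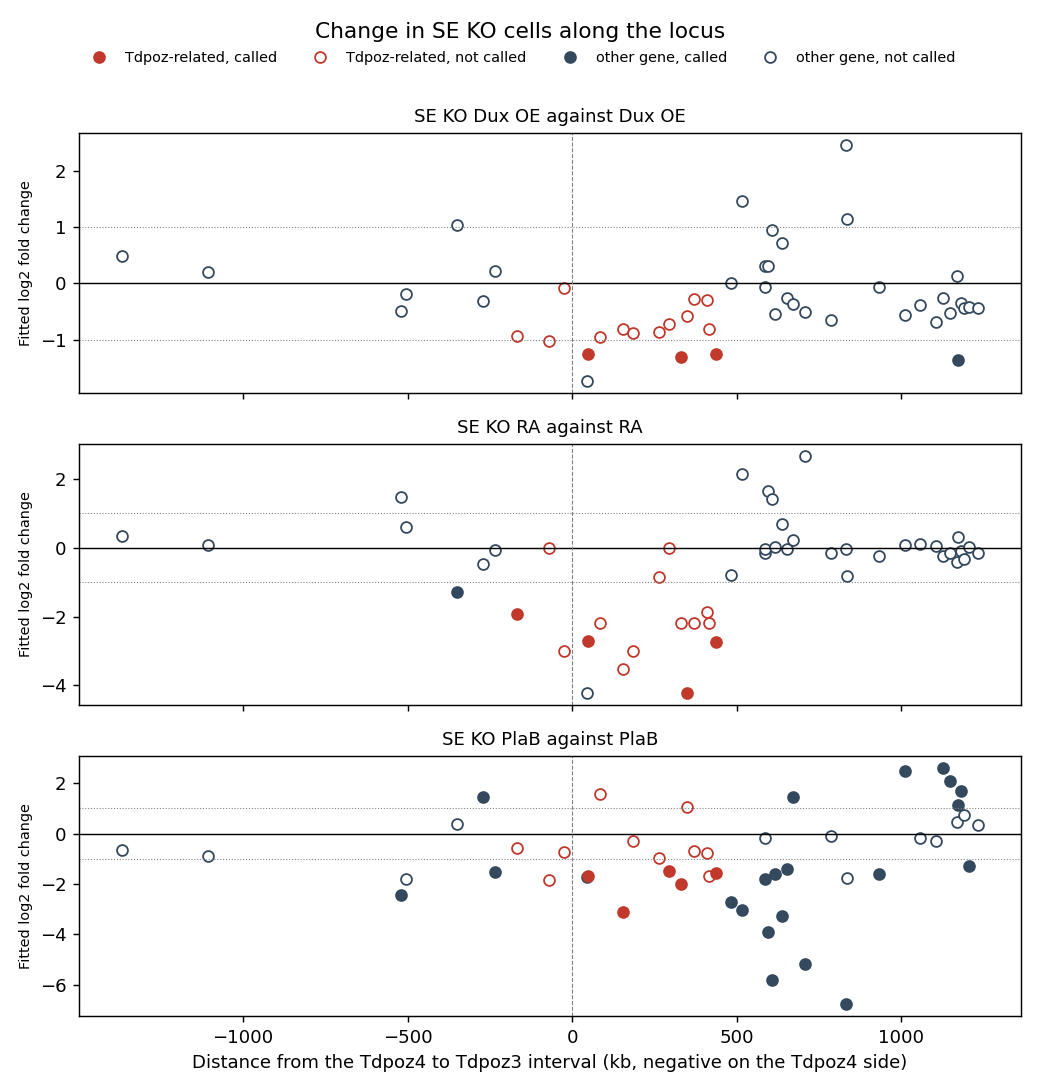
Fitted log2 fold change of the 49 tested genes in each SE KO group against the matching wild-type induction, by distance from the Tdpoz4 to Tdpoz3 interval in kb. Red points are Tdpoz-related, filled points are called and dotted lines mark a log2 fold change of 1 in either direction. Called genes number 4 in SE KO Dux OE, 5 in SE KO RA and 26 in SE KO PlaB, and genes more than 500 kb out move widely in SE KO PlaB.

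For these neighbours the levels in PlaB stood apart from both DMSO and SE KO PlaB. Pogz was 111 and 114 CPM in DMSO, 23.5 and 25.4 CPM in PlaB and 137 and 133 CPM in SE KO PlaB. Mrpl9 was 25.2 and 22.8 CPM, 66.0 and 57.9 CPM and 19.4 and 20.8 CPM in the same order. Psmd4 was 210 and 207 CPM, 517 and 471 CPM and 170 and 239 CPM. PlaB against DMSO and SE KO PlaB against PlaB share the PlaB libraries, so their signs are not independent and are given as values only. The 2-cell-like markers summed to 7185 to 7249 CPM in PlaB, 480 to 580 CPM in SE KO PlaB and 3.29 to 4.99 CPM in DMSO, where Zfp352 was at 0. Primitive endoderm markers summed to 21.3 to 22.1 CPM in PlaB, where Foxa2 was at 0, and to 113 to 121 CPM in SE KO PlaB. Pluripotency markers, none at 0, summed to 1645 to 1651 CPM in PlaB and 3101 to 3386 CPM in SE KO PlaB, and fibroblast markers to 16.8 to 18.6 CPM and 41.9 to 45.2 CPM, with Dcn at 0 in SE KO PlaB. Against these sums, Zfp42 was lower in SE KO PlaB, at 873 and 870 CPM against 1235 and 1270 CPM in PlaB, as was Col1a1. The part of these lists in these results was not tested.

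**Figure D4:**
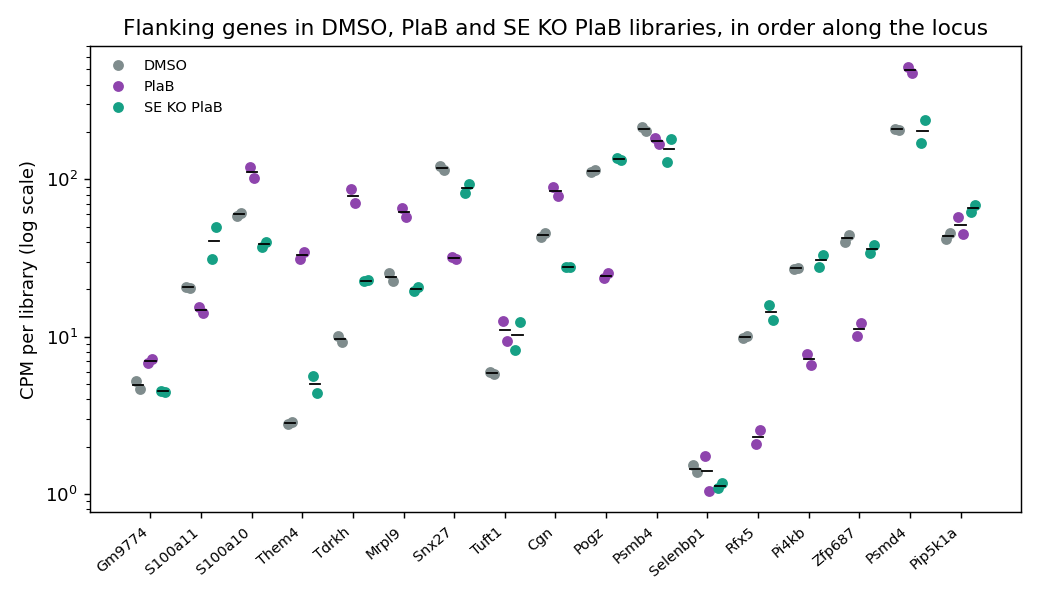
CPM per library on a log axis of the protein-coding genes of the window that are not Tdpoz-related and have at least 1000 counts in all, in their order along the chromosome, in DMSO, PlaB and SE KO PlaB, with black bars at the mean of 2 libraries. Them4, Tdrkh, Mrpl9, Cgn and Psmd4 are highest in PlaB, and Snx27, Pogz, Rfx5, Pi4kb and Zfp687 are lowest in PlaB.

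Across the SE KO comparisons, 29 of the 49 tested genes were called in at least 1. The share of all tested genes called in at least 1 is not given here. SE KO PlaB alone called 26 of the 49 and 52.0% of all tested genes. Gm9113 and Spopfm1 were called lower in all 3, Gm5543 was called lower in 2, and Gm15265 was called lower in SE KO Dux OE and higher in SE KO PlaB. Several of these calls rested on single libraries. In SE KO RA, Gm9113 lost its call without RA replicate 1 (adjusted p = 0.369 in edgeR) or SE KO RA replicate 1 (adjusted p = 0.217 in edgeR), with no filter on low counts (adjusted p = 0.0884 in edgeR) and in DESeq2 (adjusted p = 0.108). Spopfm1 lost its call there without RA replicate 1 (adjusted p = 0.207 in edgeR) or SE KO RA replicate 1 (adjusted p = 0.0735 in edgeR). In SE KO PlaB, Gm15265 lost its call without PlaB replicate 2 (adjusted p = 0.0608 in edgeR) or SE KO PlaB replicate 1 (adjusted p = 0.0654 in edgeR). By distance to the span of the Tdpoz cluster, 13 tested genes lay inside it, 20 within 500 kb of it and 16 farther out. Inside the span, 1 gene was called in SE KO Dux OE, 3 in SE KO RA and 5 in SE KO PlaB. Within 500 kb these numbers were 2, 2 and 13, and farther out they were 1, 0 and 8. Over all tested genes, 6.30%, 17.6% and 52.0% were called in the same order of comparisons. Among the 34 tested genes that are not Tdpoz-related, Spearman's rho of the size of the log2 fold change with distance to the interval was 0.02 in SE KO Dux OE, -0.35 in SE KO RA and -0.32 in SE KO PlaB. These are descriptions over genes that share the libraries, and those in SE KO PlaB include genes that passed the low-count filter only through PlaB.

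The list of epidermal genes held few that could be tested. Of 12 cornified envelope and hair follicle genes in the window, such as Lor (loricrin), Flg (filaggrin) and the Sprr genes, 2 were tested. Flg had 5 and 4 counts in RA, 2 and 12 in PlaB and none in DMSO, and was called higher in both inductions, while Tchh is described above. The other 10 stayed at low counts. Of keratinocyte markers outside the window (Krt5, Krt14, Krt1, Krt10, Trp63 and Grhl3), the summed level was 23.6 to 67.7 CPM over all libraries. Most of it was Grhl3, at 15.2 to 63.5 CPM. Krt5, Krt14, Krt1 and Trp63 were each at most 1.31 CPM in any library, and Krt5, Krt14 and Trp63 were at 0 in Dux OE. Of the 49 tested genes, 4 were called in none of the 8 comparisons, namely Gm9774, Gm4202, Psmb4 and the lipid kinase gene Pip5k1a. Pip5k1a, at the far edge of the window, stayed between 42.0 and 68.9 CPM in the groups ESC, Dux OE, SE KO Dux OE, DMSO, RA, SE KO RA, PlaB and SE KO PlaB.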

How the data were processed

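Poly(A) RNA of 26 mESC libraries was analysed. The authors deposited a single table of raw read counts, whole numbers with no normalization. Per the submitters' processing notes, FastQC, Trimmomatic, STAR, featureCounts and DESeq2 were used with mm10. Versions, strand and multi-mapping settings are not given in the sources used here, so paralogues and antisense partners may share reads.

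Counts of all 13 groups were fitted in 1 edgeR 4.0.16 quasi-likelihood model (R 4.3.3) with TMM scaling, filterByExpr (20953 genes kept) and a prior count of 0.125. Fold changes against groups without counts use a floor of 3 counts per library, and those against groups of 1 to 3 counts use exact 95% Clopper-Pearson intervals. Alternatives included RLE scaling and DESeq2 1.42.0 on genes with at least 10 counts. Sequence relation used BLAST+ 2.17.0 on GENCODE M21 transcripts. Scripts were tested on simulated data.

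Replicates of a group differed by more than sampling noise (chi-square of 1.55 to 30.2 per degree of freedom), so each library counted as 1. Genes described in full were those called in an SE KO comparison, those inside the Tdpoz span, and those called in at least 2 inductions. Members and lists were chosen with earlier results of these data known.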

Additional observations from a re-analysis of the deposited data

Results flagged for a closer look

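The effect of SE KO differed between inductions for a part of the genes around the Tdpoz cluster, by interaction contrasts in the edgeR model. Of the 49 tested genes, 2 differed between Dux OE and RA, 25 between Dux OE and PlaB, and 20 between RA and PlaB, where 20.8%, 45.1% and 49.0% of all tested genes did. A further reading is limited to the 37 differences in which each of the 4 groups held more than 3 counts, and 10 others were left out. Values are the log2 fold change of SE KO in the first induction minus that in the second.

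Between Dux OE and RA, the difference was 2.30 for Tchh (± 0.53, SE) and -1.69 for Gm15265 (± 0.52). No Tdpoz-related member differed there.

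Between Dux OE and PlaB, the difference was positive for genes that stood lower in SE KO PlaB. It was 1.08 for Mrpl9, 1.09 for Gm4202, 1.12 for Gm9774, 1.53 for Cgn, 1.74 for S100a10 and 2.11 for Tdrkh. It was 2.32 for Gm9121, 2.71 for Them4 and 2.92 for BC021767. It was negative for 10 genes, at -1.17 for 4930481B07Rik, -1.65 for Spopfm2, -1.76 for S100a11, -1.84 for Snx27 and -2.04 for Zfp687. The other five were Gm15265 and Gm9116 (-2.52 each), Pi4kb (-2.61), Rfx5 (-2.89) and Pogz (-3.04).

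Between RA and PlaB, the difference was 1.30 for Psmd4, 1.35 for Cgn, 1.47 for S100a10, 1.64 for Mrpl9, 1.66 for Tdrkh and 1.92 for Them4. It was 3.90 for Rplp0-ps1 and 3.97 for Riiad1, which passed the low-count filter only through the PlaB libraries. It was -1.06 for 4930481B07Rik, -1.25 for Snx27, -1.64 for Tchh, -1.78 for Zfp687 and -1.93 for S100a11. It was -2.25 for Pi4kb, -2.38 for Pogz and -2.86 for Rfx5.

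The Dux KD libraries, which entered no comparison, held reads of the Tdpoz-related members under RA. The 16 members summed to 3.27 and 4.36 CPM in Dux KD RA, from 57 and 74 counts, above the 2 DMSO libraries with 1 and 0 counts and above both RA libraries, with 2.03 and 2.14 CPM. The difference between Dux KD RA and RA was not tested. In Dux KD PlaB they summed to 1 and 3 counts.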

How the results depend on the processing

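With 2 libraries per group, the spread was shared over all groups, and depth limits statements on the Tdpoz-related members in RA, SE KO RA, DMSO and ESC, where most stood near 3 counts. The members called changed most when the fold line was dropped, to 18 in SE KO Dux OE, 9 in SE KO RA, 21 in RA, 13 in Zscan4 OE and 16 in Dux R70A OE. The shares over all genes without the fold line are not given here. In SE KO RA, 3 members were called with no low-count filter, 3 by DESeq2 and 2 in a fit of the 2 groups only. In RA, 6 were called in a fit of the 2 groups only and 7 with ESC as the control. In Zscan4 OE, 8 were called with DMSO as the control. The cause of these changes was not tested. In Dux R70A OE, 3 of the calls of the main fit lay within 500 kb of the cluster, which is a subset and not another setting.

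Leaving out 1 library gave 2 to 5 calls in SE KO Dux OE, 1 to 5 in SE KO RA, 26 to 29 in SE KO PlaB, 17 to 18 in Dux OE, 7 to 10 in RA, 33 to 37 in PlaB, 2 to 4 in Zscan4 OE and 4 to 5 in Dux R70A OE. The lowest counts came without Dux OE replicate 2 or SE KO Dux OE replicate 2, without SE KO RA replicate 1, without DMSO replicate 1 in RA, and without ESC replicate 2 in Zscan4 OE.

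The 35 fold changes called in an SE KO comparison were recomputed 350 times under these alternatives. In 320 the call held, in 30 it was lost, and in 0 the sign turned. The fit of the 2 groups only gave values for 31 of the 35, and these calls held. By their counts, Spopfm1, Gm5541, Gm9113 and Spopfm2 in SE KO RA were too low to be tested in that fit. They are counted there neither as held nor as lost. All 35 were kept under RLE scaling, under scaling by library size alone and with a replicate block. The pairing rests on numbers alone, with correlations of same-numbered deviations from -0.0473 to -0.00218, and with the replicate block 4 members were called in SE KO Dux OE and 5 in SE KO RA. The 5 calls lost under DESeq2 were Gm5543 in SE KO Dux OE, Gm9113 and Spopfm2 in SE KO RA, and Celf3 and Gm15234 in SE KO PlaB.
Against TMM, scaling by library size alone moved the log2 fold change of every gene by -0.12 in SE KO PlaB, 0.26 in PlaB, 0.19 in RA, 0.15 in Zscan4 OE and 0.23 in Dux R70A OE, and RLE moved it by -0.13 in SE KO PlaB and 0.16 in PlaB.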
